A study of Mus musculus with 36 samples.

Results

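Expression of 38 genes of the cell division programme was examined in articular cartilage of the mouse knee after destabilization of the medial meniscus (DMM), an operation that loosens the medial meniscus and leads to post-traumatic osteoarthritis. The genes are a named list, and each was represented by the RefSeq transcript with the highest mean count over the 12 RNA libraries, which gave a count for 38 of 38 genes among 23059 genes with a symbol. Of these, 15 act at the G1/S transition and in DNA replication and 23 act in G2 and mitosis. A single transcript was listed for 30 of the genes and more than 1 for the other 8, where reads of shared exons may be divided between transcripts, and the transcript used for Tyms is a non-coding one. All 38 passed the filter on low counts in every comparison.

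Cartilage came from male C57BL/6J mice that underwent DMM of the right knee at 12 weeks of age, with the left knee left unoperated as the control. The labels name no transgene, deletion or drug in any group, and every control limb came from a mouse whose other knee had been operated. For RNA, 12 libraries covered both limbs at 4 and at 12 weeks from the operation, 3 libraries to a group, and each pooled the cartilage of 3 knees. DNA of both limbs and times was profiled by reduced representation oxidative bisulfite sequencing (RRoxBS), which reads 5-methylcytosine (5mC), with 3 libraries per group.

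A cell that divides passes through G1, copies its DNA in S phase, and separates the copies in mitosis. E2F factors switch on the replication genes at the G1/S border, among them the Mcm2 to Mcm7 helicase, the Pcna clamp, the nucleotide enzymes Rrm1, Rrm2 and Tyms, the origin licensing factors Cdc6 and Cdt1, and the E cyclins. The MuvB complex, with B-Myb and Foxm1, switches on the mitotic genes, among them cyclin B1 (Ccnb1) and its kinase Cdk1, the kinases Plk1, Aurka, Aurkb, Bub1 and Bub1b, the spindle motors Kif11, Kif20a and Kif23, and the ubiquitin ligase factors Cdc20 and Ube2c. Chondrocytes of adult articular cartilage divide rarely, whereas precursors in bone marrow divide often.

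MuvB binds a motif called the CHR and E2F factors bind sites of their own, and 7 promoters are shown here, of genes that led the comparisons or that differ in their motifs. The sequences run from 150 bases before to 20 bases after the RefSeq start on GRCm38.p6, 5′ to 3′ on the strand of the gene. Capitals mark matches on either strand. The cell cycle homology region (CHR) was searched as TTTGAA, and a variant of it as TTCGAA, with TTTAAA searched as another variant. The CCAAT box was searched by the letters of its name, and E2F sites by TTTGGCGC, TTTCGCGC, TTTCCCGC or TTTGGCGG. On the opposite strand the CHR reads TTCAAA, while the CCAAT box there appears as ATTGG. Adjoining matches form 1 run of capitals in Mcm6.
Top2a (chr11:99024170-99024339, minus strand): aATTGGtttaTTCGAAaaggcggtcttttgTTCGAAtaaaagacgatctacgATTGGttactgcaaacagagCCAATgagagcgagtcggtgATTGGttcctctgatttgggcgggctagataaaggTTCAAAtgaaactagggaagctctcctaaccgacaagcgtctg
Kif11 (chr19:37376232-37376401, plus strand): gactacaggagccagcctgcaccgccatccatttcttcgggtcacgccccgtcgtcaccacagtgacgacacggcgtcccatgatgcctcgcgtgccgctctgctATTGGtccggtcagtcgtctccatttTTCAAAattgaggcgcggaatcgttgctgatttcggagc
Cdc20 (chr4:118437324-118437493, minus strand): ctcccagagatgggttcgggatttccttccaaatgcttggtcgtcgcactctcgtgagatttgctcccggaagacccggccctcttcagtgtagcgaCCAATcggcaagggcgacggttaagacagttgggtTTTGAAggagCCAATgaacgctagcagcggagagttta
Ube2c (chr2:164769779-164769948, plus strand): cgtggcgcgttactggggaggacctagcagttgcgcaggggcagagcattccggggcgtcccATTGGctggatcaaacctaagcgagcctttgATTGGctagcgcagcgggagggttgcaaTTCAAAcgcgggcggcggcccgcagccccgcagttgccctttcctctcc
Cdk1 (chr10:69352893-69353062, minus strand): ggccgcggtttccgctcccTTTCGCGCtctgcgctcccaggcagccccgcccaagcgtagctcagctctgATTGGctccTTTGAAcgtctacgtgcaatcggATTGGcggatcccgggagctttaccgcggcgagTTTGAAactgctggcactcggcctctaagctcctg
Mcm6 (chr1:128359686-128359855, minus strand): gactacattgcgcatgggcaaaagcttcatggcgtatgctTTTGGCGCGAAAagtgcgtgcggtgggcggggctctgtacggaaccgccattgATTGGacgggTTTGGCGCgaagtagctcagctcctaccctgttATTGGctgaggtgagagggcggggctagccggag
Mcm2 (chr6:88898761-88898930, minus strand): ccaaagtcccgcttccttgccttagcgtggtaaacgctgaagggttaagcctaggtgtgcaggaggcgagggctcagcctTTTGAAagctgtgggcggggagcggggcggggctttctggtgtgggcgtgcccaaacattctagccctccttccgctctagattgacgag

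Promoter windows from 250 bases before to 50 after the start were at hand for 31 of the 38 genes. Aurkb, Ccna2, Ccne2, Foxm1, Kif20a, Mcm4 and Tpx2 had none. A CHR stood in 13 of 18 G2/M promoters (72.2%) and in 1 of 13 G1/S promoters (7.69%), that of Mcm2, against 18.0% of 27025 promoters. An E2F site stood in 6 of 13 G1/S promoters (46.2%) and in 1 of 18 G2/M promoters (5.56%), that of Cdk1, against 2.45% of all. The CCAAT box was found in 16 of 18 G2/M promoters (88.9%), 8 of 13 G1/S promoters (61.5%) and 37.8% of all. A CHR variant was found in 9 of 18 G2/M promoters, 4 of 13 G1/S promoters and 14.5% of all. The windows of the members were richer in GC, with a median of 58.7% against 52.7% for all promoters. For Cdc6 and E2f1 the start used for the window lies 350 and 466 bases from the start of the counted transcript. A match is a description of the letters and does not show binding.

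**Figure D1:**
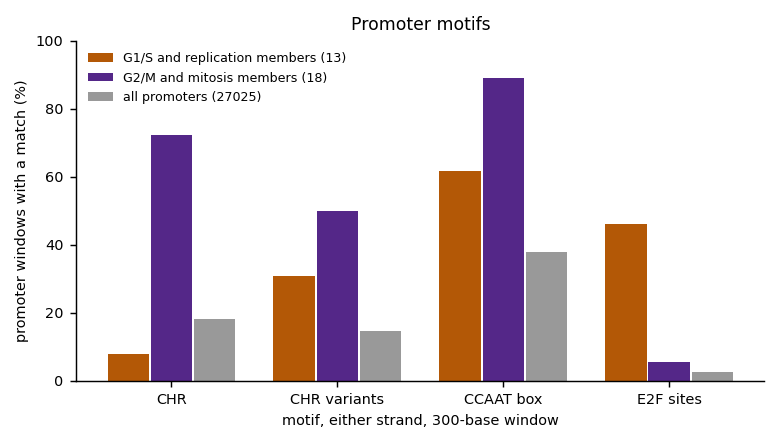
Share of 300-base promoter windows with a match on either strand (vertical axis, %) for each motif (horizontal axis), in the 13 G1/S and 18 G2/M members with a window and in 27025 promoters. The CHR bar is highest for the G2/M members (72.2%) and the E2F bar for the G1/S members (46.2%).

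The libraries held 27706547 to 62737656 counts, and the 38 genes took 0.150% to 0.515% of them. Levels are given in CPM, which scales counts to an equal library size, with TMM factors over the 12 libraries. As markers of the labelled tissue, 20 chondrocyte genes were detected in every library, with summed levels of 16512 to 57716 CPM. Neutrophil and bone marrow markers summed to 10418 to 47229 CPM over 15 genes and erythroid markers to 7568 to 22325 CPM over 13 genes in the same libraries. In bulk samples such as these, fewer cells of a type and less RNA per cell cannot be told apart.

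Summed over the 38 genes, control libraries at 4 weeks held 1709, 2458 and 4478 CPM and DMM libraries 2146, 3126 and 2668 CPM. At 12 weeks, control libraries held 4940, 3895 and 4257 CPM and DMM libraries 2588, 2464 and 3940 CPM. Replicate 3 of the 4-week controls therefore lay well above its own group, and replicate 3 of the 12-week DMM libraries stood among the 12-week controls. The G1/S and G2/M genes moved together, and the G2/M sum was 86.4% to 122% of the G1/S sum in every library.

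The neutrophil and marrow list moved with these sums, at 10418, 17055 and 29991 CPM in the 4-week controls, 15170, 22934 and 20859 CPM in the 4-week DMM libraries, 47229, 28218 and 40090 CPM in the 12-week controls and 22945, 22431 and 36665 CPM in the 12-week DMM libraries. The 5 libraries with the highest sum of cell division genes were the 5 with the highest neutrophil sum. Relative to the neutrophil sum, the cell division sum at 4 weeks was 14.4% to 16.4% in control and 12.8% to 14.1% in DMM libraries, without overlap. At 12 weeks it was 10.5% to 13.8% in control and 10.7% to 11.3% in DMM libraries. Erythroid markers followed less closely, and 3 of the 5 libraries with the highest sums were shared.

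**Figure D2:**
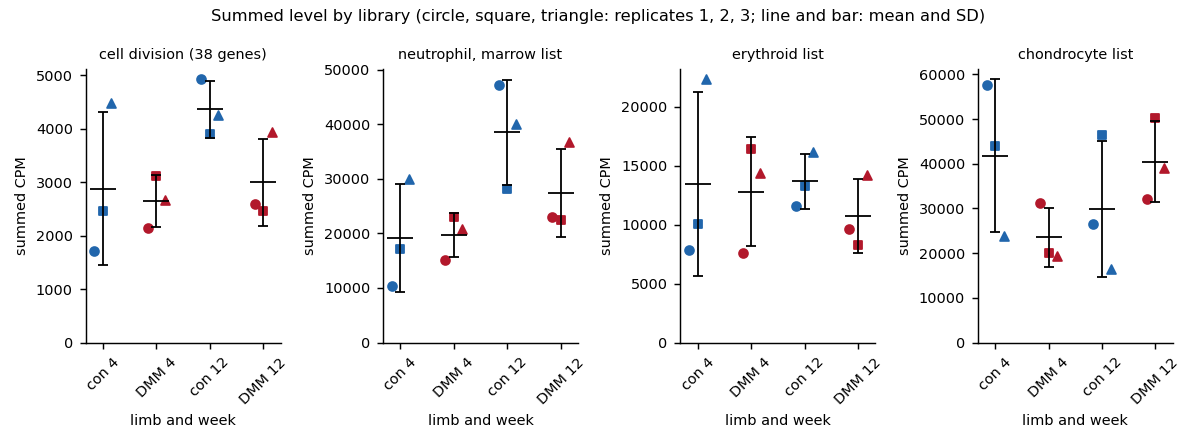
Summed CPM (vertical axes, from 0) of the 38 cell division genes and of 3 marker lists by limb and week (horizontal axis; con, control). Each symbol is 1 of 3 pooled libraries, and the line and bar give mean and SD; the panels of cell division and neutrophil genes place the libraries in a similar order, from 1709 CPM in replicate 1 of the 4-week controls to 4940 CPM in replicate 1 of the 12-week controls.

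Per kilobase of transcript, which allows genes to be compared, the members spanned a wide range. In 12-week control limbs the highest mean level belonged to Rrm2, the small subunit of ribonucleotide reductase, at 178 ± 15.3 CPM per kb (SD, n = 3). Ube2c, the E2 enzyme of the anaphase-promoting complex, followed at 157 ± 15.4 CPM per kb, Mcm6 at 102 ± 7.15 and Ccnb2 at 94.8 ± 10.3. The same 4 genes led in the same order in the 4-week controls and in the 12-week DMM limbs, and in the 4-week DMM limbs Mcm6 (68.9 ± 5.22) stood just above Ube2c (68.3 ± 13.3), within their spread. Rrm2 and Ube2c overlapped in their spread over libraries there, at 131 ± 45.2 and 114 ± 34.7 CPM per kb in 12-week DMM limbs.

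**Figure D3:**
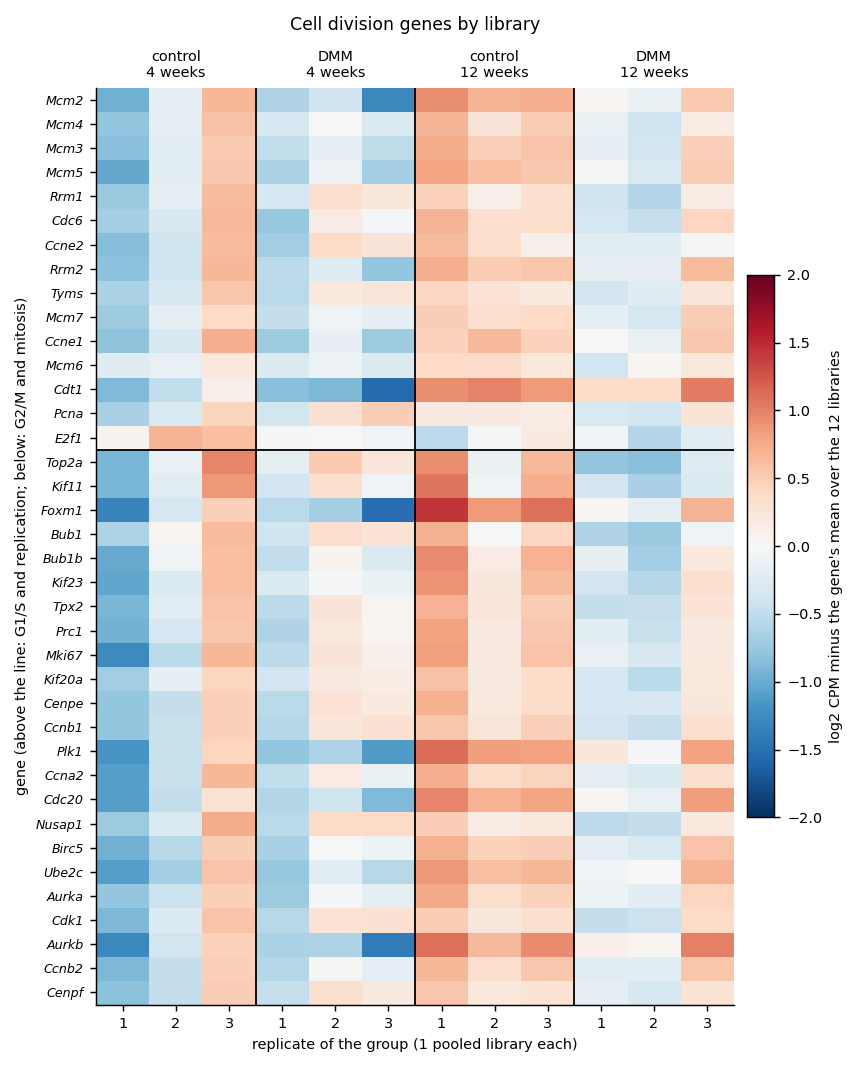
Level of each of the 38 genes (rows) in each of 12 libraries (columns), as log2 CPM minus the gene's mean over the libraries. Most rows are blue in replicate 1 of the 4-week controls and red in replicate 3 of the same group and in the 12-week controls; E2f1 departs from this, with its highest values in replicates 2 and 3 of the 4-week controls.

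The first comparison asked how the operated limb differed from the control limb once disease was established, at 12 weeks. All 38 genes were lower in DMM limbs, with a median log2 fold change of -0.53 and a range of -1.14 (Top2a) to -0.17 (E2f1), where 48.5% of the 21010 transcripts tested were lower and their median was 0.01. None passed an adjusted p of 0.05 in edgeR's quasi-likelihood test, where the smallest adjusted p was 0.211 and 0.00476% of all transcripts were called. At an unadjusted p under 0.05, 22 of 38 were lower, against 7.39% of all transcripts. DESeq2 called 5 of the 38 as lower (Top2a, Kif11, Foxm1, Bub1 and Mcm4) and 1.44% of all transcripts, with a smallest adjusted p among them of 0.00587. With the replicate number as a block, edgeR called Bub1b and Kif11 as lower (adjusted p = 0.0352 and 0.0406), among 734 of 21010 transcripts called. Whether shared numbers mark limbs of the same mice is not known.

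Top2a, the topoisomerase that untangles sister chromatids, held 185, 87.4 and 152 CPM in control and 56.0, 54.5 and 80.8 CPM in DMM libraries at 12 weeks. The groups did not overlap, and the log2 fold change was -1.14 ± 0.28 (SE, unadjusted p = 0.0035, edgeR adjusted p = 0.211). Kif11, the motor that pushes spindle poles apart, held 131, 58.6 and 103 CPM in control and 48.4, 40.1 and 51.2 CPM in DMM libraries, without overlap, for a log2 fold change of -1.06 ± 0.27 (edgeR adjusted p = 0.211). Control replicate 2 was the lowest control library for both genes, and the edgeR adjusted p was 0.0324 for each when it was left out, in a fit that called 4.04% of all transcripts. Bub1 (described next) was called in the same fit, at -1.04 with an edgeR adjusted p of 0.0450. No other left-out library gave a call for Top2a or Kif11, with adjusted p up to 0.682 for Top2a and 0.686 for Kif11.

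Foxm1, the factor that drives mitotic transcription, held 55.5, 37.0 and 43.7 CPM in control and 21.1, 18.0 and 32.9 CPM in DMM libraries, a log2 fold change of -0.91 ± 0.24 (edgeR adjusted p = 0.215). Bub1, a kinase of the spindle checkpoint, held 33.3, 20.4 and 27.1 CPM against 13.4, 12.2 and 19.1 CPM, a log2 fold change of -0.84 ± 0.23 (edgeR adjusted p = 0.217). Mcm4, a subunit of the replicative helicase, held 142, 107 and 126 CPM against 80.5, 67.4 and 98.1 CPM, a log2 fold change of -0.60 ± 0.17 (edgeR adjusted p = 0.232). None of these 3 genes overlapped between limbs, and DMM replicate 3 was the DMM library closest to the controls for each.

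Over the 38 genes, the limbs did not overlap for 10, all lower in DMM, where 8.73% of all transcripts were lower without overlap. They were the 5 genes above and Ccna2, Ccne2, Mcm2, Mcm5 and Mcm6, so 5 were G2/M and 5 were G1/S genes. Mcm6 was close to a tie, with 278.1 CPM in the lowest control and 277.7 CPM in the highest DMM library (edgeR unadjusted p = 0.0854). The helicase subunit Mcm2 held 205, 174 and 180 CPM in control and 111, 98.7 and 156 CPM in DMM libraries, a log2 fold change of -0.60 ± 0.19 (unadjusted p = 0.0121). Of the 15 G1/S genes, 6 were lower at an unadjusted p under 0.05, and the median log2 fold change was -0.44. Of the 23 G2/M genes, 16 were, and the median was -0.55.

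Mki67, the proliferation marker Ki-67, held 176, 114 and 148 CPM in control and 89.4, 80.1 and 114 CPM in DMM libraries, where the lowest control and the highest DMM library met. Its log2 fold change was -0.62 ± 0.20 (unadjusted p = 0.0145, edgeR adjusted p = 0.253). Cdk1 and its partner Ccnb1 overlapped between limbs. Cdk1 held 102, 83.5 and 89.2 CPM against 51.7, 53.2 and 94.7 CPM, and Ccnb1 held 57.8, 46.6 and 54.8 CPM against 30.03, 28.5 and 49.7 CPM. In both, DMM replicates 1 and 2 lay below every control library and replicate 3 did not.

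Plk1, a kinase needed to enter and leave mitosis, showed the same layout, with 109, 90.8 and 88.1 CPM in control and 59.2, 49.2 and 88.4 CPM in DMM libraries. The nucleotide enzyme Rrm2 held 427, 364 and 376 CPM against 227, 230.03 and 399 CPM, again with DMM replicate 3 among the controls. Pcna, the sliding clamp of replication, held 49.3, 49.0 and 48.1 CPM against 35.2, 33.3 and 51.6 CPM. E2f1 had the smallest difference, with 9.09, 12.7 and 14.7 CPM in control and 12.4, 8.69 and 11.1 CPM in DMM libraries, and a log2 fold change of -0.17 ± 0.22.

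**Figure D4:**
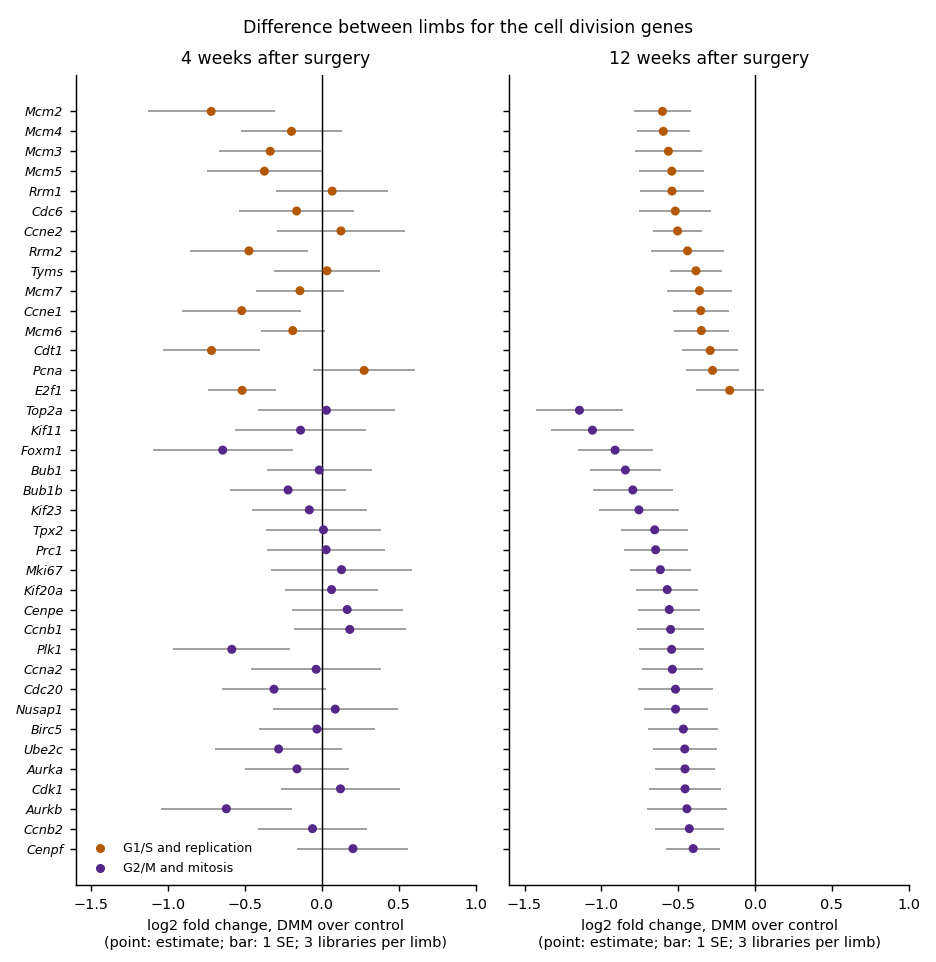
Log2 fold change of DMM over control limbs (horizontal axis) for each of the 38 genes (vertical axis) at 4 weeks (left) and 12 weeks (right), with 1 SE and 3 libraries per limb. At 12 weeks all 38 points lie below 0, from -1.14 to -0.17, whereas at 4 weeks 14 lie above 0 and 24 below.

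Marrow markers were also lower in DMM limbs at 12 weeks. The 15 neutrophil and marrow genes were all lower in DMM limbs (median log2 fold change -0.51, 1 with an unadjusted p under 0.05), with summed levels of 28218 to 47229 CPM in control and 22431 to 36665 CPM in DMM libraries. The 13 erythroid genes were all lower (median -0.38, 6 with an unadjusted p under 0.05), as were 11 of 12 B lymphocyte genes (median -0.53, 5 under that p), while the 20 chondrocyte genes were all higher (median 0.50, 3 under that p), at 16512 to 46442 CPM in control and 32114 to 50162 CPM in DMM libraries. Of the lists whose sums did not overlap between limbs, fibroblast and synovium genes held 7410 to 12404 CPM in control and 13185 to 18893 CPM in DMM libraries, osteoblast and osteocyte genes 10238 to 15952 CPM against 16353 to 19372 CPM, and macrophage genes 4323 to 5778 CPM against 3484 to 4193 CPM (exact permutation p = 0.1 for each, the smallest that 3 against 3 libraries allow). By gene, 9 of 12 fibroblast and synovium genes and 9 of 12 osteoblast and osteocyte genes were higher in DMM limbs, with 3 lower in each list. Of 9 macrophage genes, 8 were lower. The sums of the neutrophil, erythroid, B lymphocyte and chondrocyte lists overlapped. None of these marker genes passed an adjusted p of 0.05 in edgeR. Every neutrophil gene was detected in every library.

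With the neutrophil score of each library as a covariate, the median log2 fold change of the 38 genes at 12 weeks was -0.17, with 37 lower and 2 with an unadjusted p under 0.05, where the share of all transcripts under that p was 2.92% and not 16.3%. The erythroid score as a covariate gave -0.12, with 27 lower and none with an unadjusted p under 0.05, against 2.67% of all transcripts. The skeletal muscle score gave -0.48, with 38 lower and 19 under that p, against 13.4%. The part of marrow RNA in the limb difference was not tested beyond these fits. When each library was left out in turn, all 38 genes stayed lower, the median lay between -0.78 (without DMM replicate 3) and -0.39 (without DMM replicate 2), and the number with an unadjusted p under 0.05 lay between 7 (without control replicate 1, against 7.13% of all transcripts) and 37 (without DMM replicate 3, against 22.8%).

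At 4 weeks, in early disease, no member was called by edgeR or by DESeq2, where edgeR called 0.0757% and DESeq2 3.44% of all transcripts. Of the 38 genes, 24 were lower and 14 higher in DMM limbs, with a median log2 fold change of -0.11 against -0.03 for all transcripts and a range of -0.72 to 0.27. Of all transcripts, 52.5% were lower. Only E2f1, lower in DMM, had an unadjusted p under 0.05 by edgeR, against 13.7% of all transcripts, where 7.57% of all were lower and 6.11% higher at that threshold. It was also the only member whose limbs did not overlap, against 10.1% of transcripts that were lower without overlap and 11.2% that were higher. DESeq2 gave an unadjusted p under 0.05 for 2 members, against 16.6% of all transcripts.

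E2f1, the transcription factor that opens S phase, held 13.7, 20.9 and 19.7 CPM in control and 12.8, 12.9 and 12.4 CPM in DMM libraries, a log2 fold change of -0.52 ± 0.22 (unadjusted p = 0.0463, edgeR adjusted p = 0.361). Next by p were Cdt1, which loads the helicase on origins, at -0.72 ± 0.32, Mcm2 at -0.72 ± 0.41, Plk1 at -0.59 ± 0.38 and Aurkb at -0.62 ± 0.42. Cdt1 held 12.2, 16.02 and 24.5 CPM in control and 12.5, 12.0 and 7.70 CPM in DMM libraries, and Aurkb, the kinase of the chromosomal passenger complex, 20.4, 38.9 and 68.8 CPM against 32.2, 32.7 and 19.1 CPM. In both genes control replicate 1 lay within the DMM range and control replicates 2 and 3 above it.

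Control replicate 3 was the highest of the 6 libraries of 4 weeks for Mki67, Top2a, Plk1, Mcm2 and Foxm1. Mki67 held 41.3, 68.1 and 157 CPM in control and 69.0, 119 and 107 CPM in DMM libraries, and Top2a 51.3, 87.5 and 190.2 CPM against 85.2, 140 and 114 CPM. Plk1 held 22.3, 37.0 and 68.0 CPM against 29.5, 33.0 and 23.1 CPM, and Mcm2 55.3, 94.7 and 172 CPM against 71.2, 81.8 and 44.0 CPM. Foxm1 held 8.13, 16.3 and 28.5 CPM against 14.1, 12.9 and 7.15 CPM. Without control replicate 3 the median log2 fold change turned to 0.37 with 31 of 38 genes higher, and without control replicate 1 it was -0.36 with 37 lower and 9 with an unadjusted p under 0.05, against 13% of all transcripts.

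For the regulators and enzymes that follow, the 4-week limbs overlapped as well. Ccnb1 held 22.8, 28.8 and 54.4 CPM in control and 26.3, 46.4 and 48.7 CPM in DMM libraries, Cdk1 38.6, 59.5 and 106 CPM against 48.7, 87.6 and 88.2 CPM, Pcna 27.5, 35.0 and 59.0 CPM against 33.7, 53.7 and 61.0 CPM, and Rrm2 146, 196 and 409 CPM against 179, 216 and 150.3 CPM. The 15 skeletal muscle markers, at 5947 to 22560 CPM in control and 644 to 3555 CPM in DMM libraries, were lower in every DMM library than in every control library. With their score as a covariate the median of the 38 genes was -1.05 with 38 lower, each at an edgeR adjusted p of 0.934. Because the score itself separated the limbs, muscle and limb cannot be told apart in that fit. The erythroid score gave a median of 0.11 with 20 higher, and the neutrophil score -0.05 with 22 lower. Fibroblast and synovium genes, at 8046 to 15730 CPM in control and 21044 to 26795 CPM in DMM libraries, and osteoblast and osteocyte genes, at 11252 to 12625 CPM against 17722 to 18351 CPM, did not overlap either. In each of these 2 lists 9 of 12 genes were higher in DMM limbs and 3 lower, and 8 of 9 macrophage genes were higher. Of the 20 chondrocyte genes, 16 were lower in DMM limbs at 4 weeks, 8 of them with an unadjusted p under 0.05 and none called (median -0.72), the opposite sign to 12 weeks, with sums of 23776 to 57716 CPM in control and 19338 to 31166 CPM in DMM libraries. The part of these tissues in the members' values at 4 weeks was not tested beyond these fits.

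Whether the limb difference itself changed between weeks was tested as the interaction of limb and week. No member was called by edgeR (smallest adjusted p 0.41) or by DESeq2, where edgeR called 0% and DESeq2 0.0613% of all transcripts, and none had an unadjusted p under 0.05 in edgeR, against 12.3% of all. DESeq2 gave 1, against 12.5% of all. The limb effect was lower at 12 than at 4 weeks for 31 of 38 genes, against 48.1% of all transcripts, with a median of -0.44 and a range of -1.19 to 0.42 on the log2 scale. The smallest unadjusted p belonged to Top2a (-1.19 ± 0.58), Bub1 (-0.84 ± 0.44), Kif11 (-0.94 ± 0.55), Kif20a (-0.65 ± 0.39), a motor of cytokinesis, and Cenpe (-0.74 ± 0.45), a kinetochore motor. At 4 weeks Bub1 held 13.2, 21.1 and 31.4 CPM in control and 15.3, 25.7 and 24.5 CPM in DMM libraries, and Kif11 33.1, 54.1 and 114 CPM against 47.7, 78.2 and 59.1 CPM. Both overlapped between limbs at 4 weeks and did not at 12 weeks. Kif20a held 42.9, 62.1 and 93.2 CPM in control and 53.1, 78.8 and 77.0 CPM in DMM libraries at 4 weeks, and 104, 79.0 and 89.7 CPM against 54.5, 47.9 and 80.2 CPM at 12 weeks. Its limbs overlapped at both weeks, as DMM replicate 3 of 12 weeks lay above control replicate 2. Cenpe held 19.9, 24.7 and 47.6 CPM in control and 23.4, 41.7 and 39.3 CPM in DMM libraries at 4 weeks, and 56.3, 39.1 and 44.2 CPM against 27.1, 26.99 and 40.1 CPM at 12 weeks, with the same overlap. Without control replicate 3 of 4 weeks the median was -0.92 and 24 members had an unadjusted p under 0.05, against 24.9% of all transcripts, though none was called. With the neutrophil score as a covariate the median was -0.04 with 22 lower and 16 higher, with the muscle score -0.17 with 26 lower, and with the erythroid score -0.24 with 31 lower.

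Between 4 and 12 weeks most members were higher in the control limbs. In 37 of 38 genes the level was higher at 12 weeks, with a median log2 fold change of 0.61 against -0.02 for all transcripts, and E2f1 alone was lower (-0.56 ± 0.25). No member was called by edgeR (smallest adjusted p 0.0813), which called 0% of all transcripts. At an unadjusted p under 0.05, 5 were higher, against 10.8% of all, and 9 were higher without overlap, against 14.4%. DESeq2 called 4 of them (Cdt1, Cdc20, Foxm1 and Plk1), against 5.6% of all transcripts called as higher. Age and time since surgery rose together, and the weeks came from different mice, so that age, time and handling cannot be told apart.

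Cdt1 led the control limbs with 12.2, 16.02 and 24.5 CPM at 4 weeks and 42.7, 44.7 and 40.6 CPM at 12 weeks, a log2 fold change of 1.29 ± 0.26 (edgeR adjusted p = 0.0813). Foxm1 went from 8.13, 16.3 and 28.5 CPM to 55.5, 37.0 and 43.7 CPM, at 1.38 ± 0.44 (edgeR adjusted p = 0.158). Plk1 was at 1.19 ± 0.39, Aurkb at 1.15 ± 0.42, with 20.4, 38.9 and 68.8 CPM at 4 and 108, 78.3 and 96.2 CPM at 12 weeks, and Cdc20, which activates the anaphase-promoting complex, at 1.15 ± 0.35, with 27.2, 41.8 and 71.5 CPM at 4 and 115, 93.9 and 101 CPM at 12 weeks. The libraries of 4 and 12 weeks did not overlap for any of these 5 genes. Without control replicate 3 of 4 weeks edgeR called 30 of 38 genes as higher, with a median of 1.10, where 9.72% of all transcripts were called higher. With the neutrophil score as a covariate the median turned to -0.31 with 32 genes lower, whereas the erythroid score left it at 0.37 with 37 higher and the muscle score at 0.31 with 34 higher. The neutrophil list summed to 10418 to 29991 CPM at 4 and 28218 to 47229 CPM at 12 weeks in these limbs. As these ranges barely overlapped, the neutrophil score and the week can hardly be told apart in that fit. The part of marrow RNA in this change was not tested beyond these fits.

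In DMM limbs members were called in both directions, at a rate near that of all transcripts. At 12 weeks 7 were called higher than at 4 weeks by edgeR (Cdt1, Plk1, Aurkb, Foxm1, Cdc20, Mcm2 and Ube2c) and 1 lower (Top2a), where 12.1% of all transcripts were called higher and 11.7% lower. The 8 calls among 38 members are close to the 23.8% of all transcripts called, and the median over the 38 genes was 0.07 against -0.03 for all transcripts. Cdt1 rose from 12.5, 12.0 and 7.70 CPM to 29.1, 29.1 and 45.7 CPM, a log2 fold change of 1.69 ± 0.25 (edgeR adjusted p = 0.00458). Top2a fell from 85.2, 140 and 114 CPM to 56.0, 54.5 and 80.8 CPM, a log2 fold change of -0.83 ± 0.23 (edgeR adjusted p = 0.0293). Weeks did not overlap in either gene.

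Plk1 rose by 1.203 ± 0.24 (edgeR adjusted p = 0.00942), from 29.5, 33.0 and 23.1 CPM to 59.2, 49.2 and 88.4 CPM. Aurkb rose by 1.30 ± 0.30 (edgeR adjusted p = 0.0146), from 32.2, 32.7 and 19.1 CPM to 53.9, 51.7 and 101 CPM. Foxm1 rose by 1.08 ± 0.30 (edgeR adjusted p = 0.0274), from 14.1, 12.9 and 7.15 CPM to 21.1, 18.0 and 32.9 CPM. Over all members the weeks did not overlap for 9 that were higher and 2 that were lower, E2f1 and Top2a, against 21.5% and 22.2% of all transcripts. For E2f1 this was close to a tie, with 12.421 CPM in the lowest 4-week and 12.415 CPM in the highest 12-week DMM library. DESeq2 called 10 members, against 29% of all transcripts. Mki67 was at -0.05 ± 0.23 and Cdk1 at -0.17 ± 0.29. The number of members called was 3 without DMM replicate 3 of 4 weeks, 4 without DMM replicate 2 of 4 weeks and 4 without DMM replicate 3 of 12 weeks, where the share of all transcripts called was 9.58%, 9.48% and 9.58%. With the neutrophil score as a covariate 2 members were called higher and 9 lower, and the median turned to -0.32 with 26 of 38 lower, where 21.1% of all transcripts were called.

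The base composition of the transcripts and, among the members, their length ran with these changes. GC was 58.7% in the Cdt1 transcript, 55.9% in Plk1, 55.7% in Cdc20, 55.5% in Mcm2, 55.3% in Foxm1, 52.6% in Aurkb and 50.9% in Ube2c, the 7 called higher in DMM limbs, and 43.3% in Top2a, called lower. E2f1, at 57.9%, stood at -0.24 ± 0.20 for 12 over 4 weeks in DMM limbs (edgeR adjusted p = 0.396), with weeks that nearly met. The GC of the members ran from 35.2% to 58.7% with a median of 47.9%. Across the 38 genes, Spearman's correlation of GC with the log2 fold change was 0.82 for the interaction of limb and week, 0.77 for 12 over 4 weeks in DMM limbs, -0.79 for DMM over control at 4 weeks, 0.54 for 12 over 4 weeks in control limbs and 0.29 for DMM over control at 12 weeks. Across all tested transcripts with a sequence, 20588 to 21244 of them, it was 0.51, 0.58, -0.56, 0.14 and 0.11. In the same order, the members' correlation with transcript length was -0.61, -0.48, 0.37, -0.24 and -0.58. Across all transcripts it was -0.01, -0.03, -0.07, -0.03 and -0.09 for length. The part of length in the changes was not tested. Top2a, Bub1, Kif11 and Cenpe, which were among the lowest p of the interaction, had GC from 40.6% to 43.3%, and Kif20a 48.4%. Genes are not independent replicates, and all points of a comparison share its libraries.

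In a fit chosen after this was seen, which took a smooth curve on GC out of each library, 12 over 4 weeks in DMM limbs had 4 members called higher and 1 lower, against 12.3% of all transcripts called. Cdt1 stood at 1.11 (edgeR adjusted p = 0.0151), Aurkb at 1.16 (0.0281), Plk1 at 0.77 (0.043) and Rrm2 at 0.93 (0.0459), and the 1 lower was E2f1 at -0.82 (0.0293). Top2a was at -0.41 (edgeR adjusted p = 0.202). The members' median was 0.28, with 34 of 38 higher. The 12-week limb difference was nearly as before, with a median of -0.52 and 38 lower. Of these, 23 had an unadjusted p under 0.05, where 1738 of 21010 transcripts were lower at that p. At 4 weeks the median was -0.17 with 33 lower and none with an unadjusted p under 0.05, against 2112 of 21140 transcripts. For the interaction the median was -0.37 with 35 lower (smallest edgeR adjusted p 0.637), and in control limbs over time 0.65 with 37 higher. In DMM limbs over time the members' correlation with GC was still 0.42 after the curve, against 0.02 for all transcripts.

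**Figure D5:**
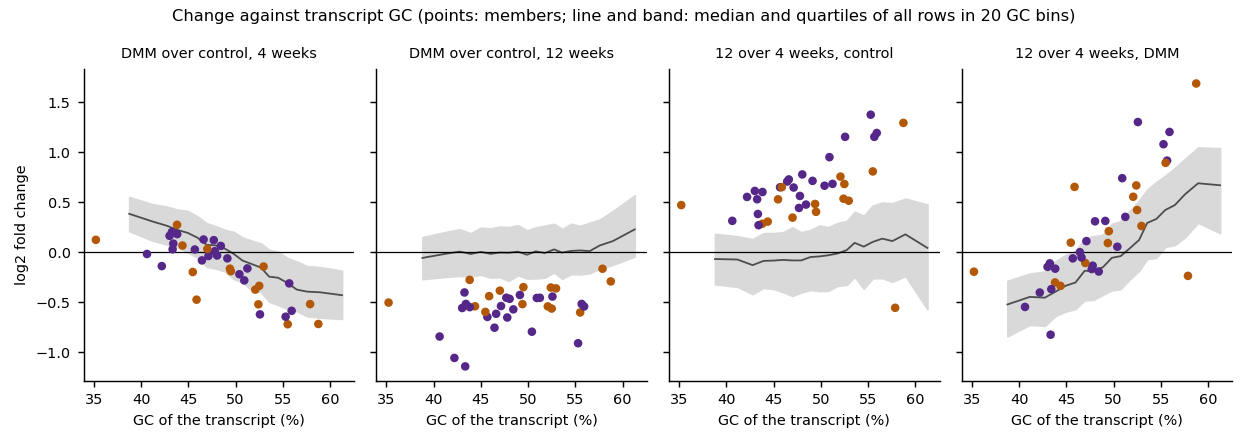
Log2 fold change (vertical axis) against GC of the counted transcript (horizontal axis, %) in 4 comparisons; points are the 38 members (orange, G1/S; purple, G2/M), and the line and band are the median and quartiles of all transcripts in 20 GC bins. Members slope in the same direction as all transcripts in DMM over control at 4 weeks and in 12 over 4 weeks of DMM limbs. With the GC curve taken out, 33 of 38 were lower in the former and 34 of 38 higher in the latter. Members lie below the flat line of all transcripts in DMM over control at 12 weeks. In control limbs over time 37 of 38 lie above 0.

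Other genes of the pathway, chosen by list, were also mostly lower in DMM limbs at 12 weeks. Of 39 further mitosis genes tested, 38 were lower in DMM limbs and 17 had an unadjusted p under 0.05, against 7.39% of all transcripts that were lower at that p, with a median log2 fold change of -0.49. The 3 with the smallest p were Anln, a scaffold of the cleavage furrow (-0.98 ± 0.23), Espl1, the separase that cuts cohesin (-1.26 ± 0.31), and Hmmr, a spindle protein (-0.79 ± 0.21). All 28 further replication genes were lower, 9 with an unadjusted p under 0.05 and a median of -0.36, led by the replication initiation factor Mcm10 (-0.64 ± 0.17). None of either list was called by edgeR at 12 weeks.

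The regulators upstream were more mixed. Of 18 RB, E2F and DREAM genes, 14 were lower at 12 weeks and 4 had an unadjusted p under 0.05 in that direction, led by the pocket protein Rbl1 (-0.63 ± 0.20), the repressor E2f8 (-0.64 ± 0.21) and Mybl2, which encodes B-Myb (-0.54 ± 0.19), while E2f5 was higher at that threshold (0.57 ± 0.22) and is named after its value was seen. Of 12 G1 cyclin, CDK and CDK inhibitor genes, 6 were higher and 6 lower. Cdkn1c, the CDK inhibitor p57, was at 0.90 ± 0.25 (edgeR adjusted p = 0.219), Ccnd2 at 0.49 ± 0.17 and Cdk6 at -0.73 ± 0.27. None was called. At 4 weeks no gene of these 4 lists was called, and 3 had an unadjusted p under 0.05, against 13.7% of all transcripts, namely E2f6 (-0.74 ± 0.21), Mybl2 (-0.95 ± 0.40) and the polymerase subunit Pold1 (-0.68 ± 0.27).

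5mC was read in the promoters of the members, within 1000 bases of the transcript start on either side, at CpGs with at least 10 reads in each of the 6 oxBS libraries of a week. For 34 of 38 genes at least 3 such CpGs were covered at both weeks, and Bub1b, Nusap1, Pcna and Tyms had fewer. CpGs were counted by cytosine, with each strand counted apart. Their number ran from 6 to 153 per promoter at 4 weeks and from 6 to 131 at 12 weeks. A value rested on 167 to 21150 cytosine calls at 4 weeks and on 229 to 12134 at 12 weeks. Calls were summed over cytosines, so a read spanning several of them counted more than once. All 34 promoters were below 10% in all 12 libraries, with the highest single value at 2.70%, as were 86.5% to 87.8% of the promoters tested at 4 weeks and 86.7% to 87.6% at 12 weeks.

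The median over the 34 promoters was 0.620% to 0.729% in the libraries of 4 weeks and 0.317% to 0.370% in those of 12 weeks. Unconverted cytosine in the mitochondrial genome, taken as a measure of incomplete conversion, was 0.530% to 0.742% and 0.284% to 0.351% in the same libraries, ranges that overlap those of the members. No member promoter was called in DMM against control by a quasi-binomial test with Benjamini-Hochberg adjustment at either week, where 0% of 14740 and of 14607 promoters were called. Aurka alone had an unadjusted p under 0.05 at 4 weeks (0.434% in control and 0.660% in DMM limbs, adjusted p = 1), against 0.875% of promoters, and none did at 12 weeks, against 6.54%. The DNA and the RNA came from different mice, so the readouts cannot be matched by library.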

How the data were processed

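RNA was sequenced from 12 cartilage libraries and oxBS DNA from 12, each a pool of 3 knees. Per the labels, RNA libraries followed a poly(A) TruSeq protocol, whereas the study's methods describe SMART-Seq v4 and Nextera XT libraries, and which applies was not settled. The deposited RNA files hold raw read counts per RefSeq transcript, which the authors made by FLEXBAR trimming, STAR alignment to mm10 and featureCounts, and CASAVA 2.17 is also listed in the submitters' processing notes. Each held 30048 rows, of which 572 matched no symbol and stayed in the fits. The deposited oxBS files hold, for each cytosine with at least 10 reads, the percentage of reads with C and with T, called by the authors' own pipeline on mm10, with Bismark in the submitters' notes. The matching bisulfite libraries and 5hmC were not used here.

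Counts were fitted over all transcripts with edgeR 4.0.16 (TMM factors, filterByExpr, robust quasi-likelihood test) in R 4.3.3, separately for each comparison, with all 12 libraries for the interaction, and p-values were adjusted by Benjamini-Hochberg over all transcripts, with a threshold of 0.05. DESeq2 1.42.0 was an alternative. Errors of fold changes, given as SE, are the absolute log2 fold change divided by the square root of the test's F statistic. There were 3 libraries per group, and p-values measure the spread between pools. Replicate libraries differed beyond counting noise (chi-square per degree of freedom 46.7 to 422). Read totals of 27706547 to 62737656 leave pool-to-pool spread, not counting error, as the limit of precision. Scripts were tested on simulated data.

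Promoter 5mC was tested on cytosine calls summed per promoter and library with a quasi-binomial model. Promoters needed at least 3 CpG cytosines, with each strand counted apart. Marker lists gave summed CPM, where an exact permutation test of 3 against 3 libraries cannot go below 0.1. Transcript GC, promoters and starts came from RefSeq on GRCm38.p6, matched by accession or symbol. Other normalizations, filters, covariates and left-out libraries were tried. The cell division genes, the other lists and the motifs were chosen with earlier results of these data known. Values by library are given for 10 genes, Mki67, Top2a, Ccnb1, Cdk1, Plk1, Foxm1, Mcm2, Pcna, Rrm2 and E2f1, and for the 5 members with the smallest p in each comparison, and of each other pathway list up to 3 genes with the smallest p were named.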

Additional observations from a re-analysis of the deposited data

How the results depend on the processing

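At 12 weeks, no member was called in DMM against control limbs by edgeR, which called 0.00476% of all transcripts. DESeq2 called 5 as lower, against 1.44% of all. When a library was left out 0 to 3 were called. The 3 came without control replicate 2, where 860 of 21261 transcripts were called, and the 0 in fits that called 0 to 102 transcripts. The 22 members with an unadjusted p under 0.05 became 2 with the neutrophil score, 0 with the erythroid score and 5 in 1 fit of 12 libraries (against 2.92%, 2.67% and 10% of all transcripts). With a library left out they were 7 (without control replicate 1, against 1526 of 21389 transcripts) to 37 (without DMM replicate 3, against 4835 of 21213). At 4 weeks the count of 1 became 2 by DESeq2, by median-of-ratios factors, without a filter and in 1 fit of 12 libraries (16.6%, 13.9%, 12.8% and 20.4% of all transcripts), 3 with the neutrophil or the muscle score (24.5% and 3.68% of all transcripts), 5 with the erythroid score (3 higher and 2 lower, 27.3% of all) and 0 with the GC curve, which was chosen after seeing the data. In the GC curve fit 2112 of 21140 transcripts were under that p. The count of members was 0 to 9 with a library left out. The 9 came without control replicate 1, where 2787 of 21384 transcripts were under that p. The 0 came in fits with 1201 of 21507 to 5176 of 21478 transcripts under it. The median moved to -1.05 with the muscle score, a fit in which muscle and limb cannot be told apart. The median turned to 0.11 with the erythroid score, and ran from -0.36 to 0.37 with a library left out. For the interaction, 1 member had an unadjusted p under 0.05 by DESeq2 and with the neutrophil score (12.5% and 6.63% of all transcripts), and 4 with the erythroid score (11.4%). With a library left out the count was 0 to 24, and the median ran from -0.92 to -0.16. The 24 came without control replicate 3 of 4 weeks, where 5454 of 21862 transcripts were under that p. The 0 came in fits with 1218 of 21864 to 2281 of 21862 transcripts under it. In control limbs over time, 4 members were called by DESeq2, 2 with the erythroid score and 1 in 1 fit of 12 libraries (11.7%, 2.68% and 5.69% of all transcripts). With a library left out 0 to 30 were called. The 30 came without control replicate 3 of 4 weeks, where 3926 of 21502 transcripts were called. The 0 came in fits that called 0 to 2 transcripts. In the same comparison, where 5 had an unadjusted p under 0.05, 13 had one with the neutrophil score (1 higher and 12 lower), 14 with the erythroid score (13 higher and 1 lower), 1 with the muscle score, 14 in 1 fit of 12 libraries (14.8%, 21%, 8.5% and 25.4% of all transcripts in these 4 fits) and 2 to 36 with a library left out (12% and 37.2% of all transcripts). The median was -0.31 with the neutrophil score and 0.31 to 1.10 with a library left out. In DMM limbs over time, 8 calls (7 higher and 1 lower) became 11 with the neutrophil score (2 higher and 9 lower), 4 in 1 fit of 12 libraries, 5 with the GC curve and 3 to 9 with a library left out, where 21.1%, 23.6%, 12.3%, 9.58% and 34.8% of all transcripts were called. The median 5mC difference at 12 weeks was 0.113 points in the narrow window and ran from -0.048 to 0.0071 points with a library left out, and at 4 weeks from -0.037 to 0.050 points. The cause of these shifts was not tested.

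Replicate numbers were shared by the limbs, and the deviations of same-numbered libraries correlated at -0.36 to 0.37 at 4 weeks and -0.58 to 0.29 at 12 weeks. With 3 libraries per group these values cannot settle whether the numbers mark pairs. The main fits did not take them as pairs. With the replicate number as a block, 2 members were called in DMM against control at 12 weeks (Bub1b and Kif11), among 734 of 21010 transcripts called, where the main fit called 1. At 4 weeks the block fit called 0 members and 354 of 21140 transcripts, where the main fit called 16. With the block, the members with an unadjusted p under 0.05 were 0 at 4 weeks, 30 at 12 weeks (all lower), 11 for the interaction and 9 in control limbs over time, against 16.3%, 23%, 16.9% and 18.1% of all transcripts. In control limbs over time the block joined libraries of different mice, so that fit tests no pairing. At 4 weeks the median with the block was 0.04, with 20 members higher.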
